A study of Sus scrofa with 16 samples.

Results

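Steroid hormones and bile acids are made, activated and inactivated by small enzymes that move hydrogen on or off the steroid skeleton. Hydroxysteroid dehydrogenases swap a hydroxyl group for a ketone or the reverse, and steroid reductases remove a double bond from the first ring. The liver does not usually make sex or stress hormones from cholesterol, but it clears them from the blood, sets the local level of active cortisol and turns cholesterol into bile acids. In pigs, hepatic HSD3B activity also takes part in the clearance of androstenone, a testicular steroid that causes boar taint.

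The genes described here are HSD3B1 and 8 other enzymes of this kind, HSD3B7, HSD11B1, HSD17B2, HSD17B6, HSD17B13, SRD5A1, SRD5A2 and AKR1D1, found by symbol among the 25880 pig genes counted. HSD3B1 was selected on its measured difference between diets in these same livers. Its differences between diets, and those of the enzymes set beside it, are therefore given below as a description without a p-value, and their counts past a threshold stand beside the share of all genes without being used as a test. Of the 9 genes, 8 were matched to an identifier, and HSD17B13 was not analysed here. The filter on low counts kept 6 of the 8 in every pair of diets.

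Liver RNA came from 16 crossbred pigs, bred from Polish Landrace x Polish Large White sows and Duroc x Pietrain boars and fattened from about 60 to 118 kg. All were given diets alike in energy and protein that differed in the type of fat: rapeseed oil in group R (5 pigs, 3 gilts and 2 barrows), beef tallow in group B (5 pigs, 2 gilts and 3 barrows) and coconut oil in group C (6 pigs, 3 gilts and 3 barrows). Barrows are castrated males, so neither sex here is an intact boar, and the ages were not given in the sources used here. Each pig was penned on its own and gave 1 library of 3′ mRNA ends, so the spread below is a spread between animals.

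Libraries held 705669 to 1767671 reads on genes, so that 3 reads, taken here as the limit of a usable value, correspond to 1.70 to 4.25 CPM (counts per 1e+06 reads). Levels below are CPM scaled by TMM over all 16 pigs. They are not divided by gene length and are compared between pigs, not between genes. The hepatocyte markers albumin (ALB), transferrin (TF), APOA1, TTR and APOH were high in every library, matching the liver label, while the identifier of SERPINA1 held 7 reads over all pigs. Of the markers of adrenal or gonadal steroid cells, CYP17A1 had 0 reads over all pigs, CYP11A1 had 1, STAR had 5 and CYP21A2 had 25. One library stood apart on the first principal component, that of the gilt that was replicate 3 of group B, and values that it moved by over 1.5 times or turned in sign are also given without it. In bulk liver RNA, fewer cells of a type and less RNA per cell cannot be told apart.

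HSD3B1 (ENSSSCG00000006719, Sscrofa11.1, chr4:101565229-101574110) converts pregnenolone to progesterone and dehydroepiandrosterone to androstenedione in steroid-making tissues. The 5 pigs of group R had 168, 121, 121, 138 and 109 CPM. The 5 pigs of group B had 62.5, 62.6, 39.4, 38.7 and 45.7 CPM. The 6 pigs of group C lay between 47.6 and 99.2 CPM with a median of 69.6. Every pig on rapeseed oil was thus above every pig on the other fats, while groups B and C overlapped, with 4 of the 6 coconut oil pigs above the highest beef tallow pig.

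Mean HSD3B1 was 131 ± 22.9 CPM (SD, n = 5) on rapeseed oil, 49.8 ± 12.0 (n = 5) on beef tallow and 69.7 ± 17.2 (n = 6) on coconut oil. Group B stood at 37.8% of the level of group R, a log2 difference of -1.40 ± 0.20 (SE). Group C stood at 52.8% of group R, a log2 difference of -0.92 ± 0.18. Between the other fats, group C was 0.49 ± 0.21 above group B on the log2 scale. The order of the diets was R, C, B, with a gap only below group R. Groups B and C were each set against the same 5 pigs of group R.

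**Figure D1:**
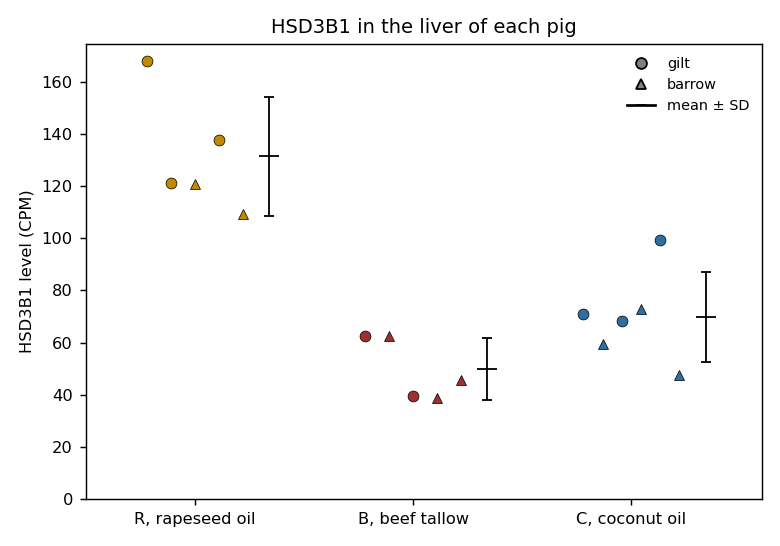
HSD3B1 level in CPM (vertical axis, from 0) in each pig of groups R, B and C (horizontal axis), with gilts as circles, barrows as triangles, and a bar for the mean and SD of each group. The 5 pigs of group R lie between 109 and 168 CPM, above all pigs of group B (38.7 to 62.6) and group C (47.6 to 99.2).

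The difference in HSD3B1 kept its direction with any single pig left out. This describes a difference on which the gene was chosen and does not test it. With each pig left out in turn, the log2 difference ranged from -1.50 to -1.29 for B against R, from -1.06 to -0.81 for C against R and from 0.35 to 0.59 for C against B. In groups R and C the mean of the gilts was above that of the barrows, at 142 against 115 CPM and 79.4 against 60.0 CPM. In group B barrows differed from gilts by -0.05 in mean log2 level, so the low level on beef tallow was seen in both sexes.

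HSD17B6 (ENSSSCG00000027854), an oxidative enzyme that can turn androstanediol back to dihydrotestosterone and also acts on retinol, had the next largest difference between groups R and B. Its levels were 420, 531, 551, 548 and 473 CPM in group R and 402, 305, 292, 415 and 207 CPM in group B. Group C ranged from 321 to 508 CPM with a median of 374. Every pig of group R was above every pig of group B, by as little as 420 against 415 CPM, and group C overlapped both.

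Group means of HSD17B6 were 505 ± 56.9, 324 ± 86.0 and 384 ± 68.3 CPM (SD) in groups R, B and C. The log2 difference was -0.64 ± 0.19 (SE) for B against R, -0.40 ± 0.15 for C against R and 0.24 ± 0.19 for C against B. Without replicate 5 of group B the last of these was 0.12, and without replicate 3 of group C it was 0.15. The order R, C, B was that of HSD3B1, but the neighbours in it were not separated from each other.

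AKR1D1 (ENSSSCG00000016519, chr18:11416065-11532846) is the reductase that gives bile acids their bent ring junction and starts the breakdown of cortisol, testosterone and progesterone. Group R had 542, 464, 728, 642 and 540 CPM. Group B had 683, 347, 81.3, 397 and 464 CPM, and group C ranged from 162 to 819 CPM with a median of 418. The groups overlapped widely, and the lowest pig of all was replicate 3 of group B.

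The means of AKR1D1 were 583 ± 102, 394 ± 217 and 442 ± 217 CPM in groups R, B and C. The log2 differences were -0.57 ± 0.36 (SE) for B against R, -0.41 ± 0.27 for C against R and 0.17 ± 0.41 for C against B. Single pigs moved these values. Without replicate 3 of group B, B against R was -0.30 and C against B turned to -0.10, and without replicate 1 of group B they were -0.86 and 0.46. Without replicate 1 of group C, C against R was -0.24 and C against B was 0.34, and without replicate 3 of group C they were -0.67 and -0.10. In CPM, each difference between means was smaller than the SD within groups B and C.

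HSD3B7 (ENSSSCG00000032369, chr3:17459627-17463381) acts right after CYP7A1 in bile acid synthesis, on the sterol that CYP7A1 has hydroxylated. Its levels were 43.5, 54.5, 57.3, 77.0 and 39.6 CPM in group R and 55.7, 53.2, 89.0, 35.6 and 41.3 CPM in group B, and 32.2 to 57.6 CPM with a median of 37.4 in group C. The diets overlapped, and the highest of all 16 pigs was again replicate 3 of group B. The log2 difference was 0.04 ± 0.26 (SE) for B against R, -0.42 ± 0.20 for C against R and -0.46 ± 0.24 for C against B. Without that pig, the first of these turned to -0.21 and the last was -0.21. With each pig left out in turn, B against R lay between -0.21 and 0.20, and C against R was closest to 0, at -0.26, without replicate 4 of group R.

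HSD17B2 (ENSSSCG00000038221, chr6:6296429-6360434) inactivates oestradiol and testosterone by oxidation. The pigs of group R had 472, 602, 296, 509 and 384 CPM, those of group B had 542, 343, 814, 414 and 298 CPM, and those of group C had 249 to 481 CPM with a median of 340. The means of groups R and B were close and that of group C was lowest, at 453 ± 117, 482 ± 207 and 349 ± 94.6 CPM (SD), but no diet was separated from another. The log2 difference was 0.09 ± 0.26 (SE) for B against R, -0.38 ± 0.20 for C against R and -0.47 ± 0.25 for C against B. Without replicate 3 of group B, the highest pig of all, B against R was -0.18 and C against B was -0.19. With each pig left out in turn, B against R lay between -0.18 and 0.22, and C against R was closest to 0, at -0.25, without replicate 2 of group R.

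HSD11B1 (ENSSSCG00000015616, chr9:133231451-133278396) regenerates active cortisol from cortisone in the liver. It was the steadiest of the 6 genes, with 336 to 448 CPM on rapeseed oil, 260 to 382 on beef tallow and 276 to 484 on coconut oil. The means of 368 ± 46.8, 324 ± 56.7 and 384 ± 66.5 CPM (SD) gave log2 differences of -0.18 ± 0.17 (SE) for B against R, 0.06 ± 0.15 for C against R and 0.25 ± 0.17 for C against B. Without replicate 4 of group R or replicate 3 of group B, B against R was -0.10 or -0.11, and with each pig left out in turn C against R lay between -0.02 (without replicate 3 of group C) and 0.14. The 95% interval of C against R ran from -0.24 to 0.35, so that a change of that size in either direction could not be told from none. In the RefSeq annotation, HSD11B1 overlaps C9H1orf74 and HSD17B2 overlaps LOC110260906, and whether reads were counted by strand is not given in the sources used here.

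SRD5A1 (chr16:75309830-75335438) and SRD5A2 (chr3:107840200-107918351) are the reductases that make dihydrotestosterone from testosterone. SRD5A1 had 1 read in each of 2 pigs, both of group C, and SRD5A2 had 1 read in each of 4 pigs, 2 of group R and 2 of group B. Both were below the limit of 3 reads in every pig. A diet difference in them was not detectable at this depth.

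**Figure D2:**
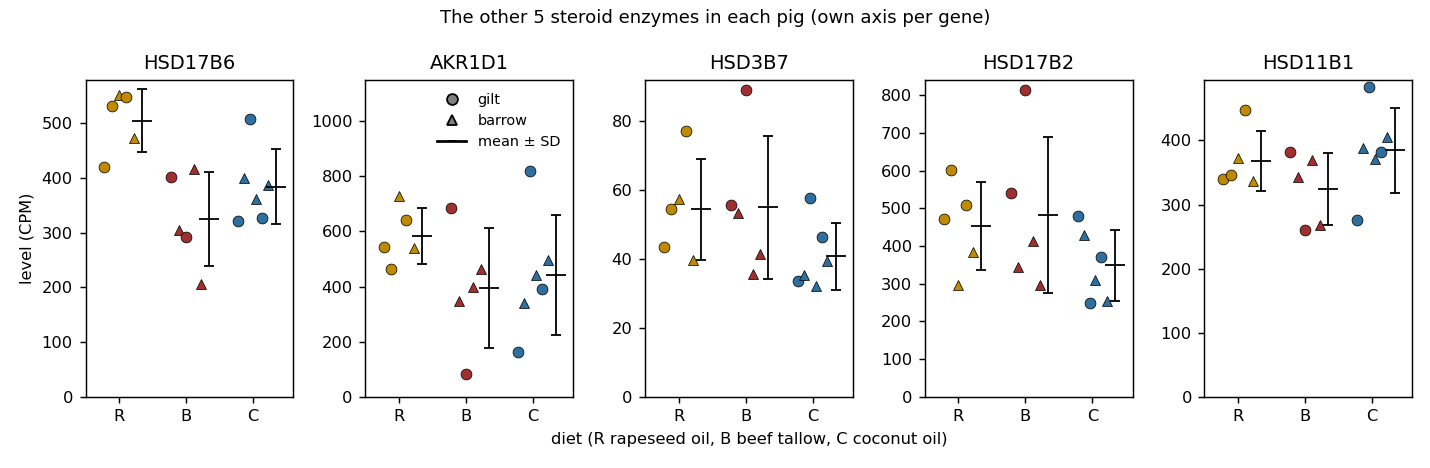
Levels in CPM (vertical axes, each from 0 and on its own scale) of HSD17B6, AKR1D1, HSD3B7, HSD17B2 and HSD11B1 in each pig of groups R, B and C, with gilts as circles, barrows as triangles, and bars for the mean and SD. Only for HSD17B6 does group R (420 to 551 CPM) clear group B (207 to 415 CPM), and replicate 3 of group B is the lowest point for AKR1D1 (81.3) and the highest for HSD17B2 (814).

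Counted over the 6 enzymes, the group B level was below that of group R for 4, with a median log2 difference of -0.37 against 0.01 over all 6318 genes tested. Between groups R and B, 1 of the 6 enzymes, HSD3B1, passed an adjusted p of 0.05 in edgeR's quasi-likelihood test, and 2 passed in DESeq2, HSD3B1 and HSD17B6. Of all genes, 1.11% passed in edgeR and 3.24% in DESeq2. For group C against R, 5 of the 6 were lower, with a median of -0.40 against -0.00 for all genes. In that pair 0 of 6 passed in edgeR, where 0.138% of all genes did, 2 had an unadjusted p under 0.05 (13% of all genes), and 1, HSD3B1, passed in DESeq2, where 2.61% did.

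For group C against B, 4 of the 6 enzymes were higher, with a median log2 difference of 0.21 against -0.00 over all genes. None passed in edgeR (0 of 6, against 0.0587% of all genes) or DESeq2 (0 of 6, against 2.46%), and 1 had an unadjusted p under 0.05 (11.5% of all genes). The diets did not overlap for 2, 1 and 0 enzymes in the pairs R and B, R and C, and B and C, where 4.57%, 1.46% and 1.44% of all genes did not overlap. Nothing is read from these counts, since the same diet contrasts had been used to choose the genes.

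**Figure D3:**
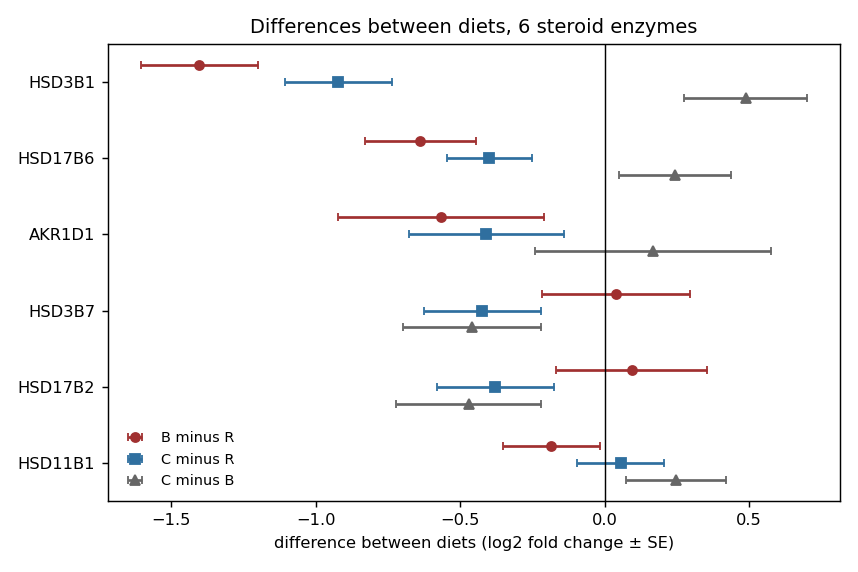
Log2 fold change between diets with its SE (horizontal axis) for 6 steroid enzymes (vertical axis), with circles for group B minus R, squares for C minus R and triangles for C minus B. HSD3B1 lies farthest from 0, at -1.40 and -0.92 against group R, and HSD11B1 stays between -0.18 and 0.25.

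The comparison of gilts with barrows had no part in the choice of these genes and could be tested. Over all 16 pigs, 0 of the 6 enzymes passed an adjusted p of 0.05 in edgeR or in DESeq2, against 0.0786% and 0.0694% of all genes, and 2 had an unadjusted p under 0.05 in edgeR, where 4.02% of all genes did. HSD17B2 was lower in barrows, with 341 CPM against 505 CPM in gilts and a log2 difference of -0.58 ± 0.19 (SE; edgeR, unadjusted p = 0.00497, adjusted p = 0.998). HSD3B7 was also lower, with 41.7 against 57.1 CPM and a difference of -0.46 ± 0.19 (edgeR, unadjusted p = 0.0230, adjusted p = 0.998). After adjustment over all genes, neither was past the threshold.

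Within diets, the mean log2 level of HSD17B2 in barrows minus that in gilts was -0.64 on rapeseed oil, -0.93 on beef tallow and -0.13 on coconut oil. In group R the 3 gilts had 472, 602 and 509 CPM and the 2 barrows 296 and 384 CPM, and in group B the 2 gilts had 542 and 814 CPM and the 3 barrows 343, 414 and 298 CPM. The sexes did not overlap in these groups, which held only 2 or 3 pigs of each sex. On coconut oil gilts (481, 249 and 370 CPM) and barrows (429, 311 and 254 CPM) were mixed. The share of all genes whose sexes did not overlap within a diet was not counted, so nothing is read from this separation. Without replicate 3 of group B, a gilt, the difference over all diets was -0.44 for HSD17B2 and -0.33 for HSD3B7.

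HSD3B1 differed between barrows and gilts by -0.48 ± 0.28 (SE), and by -0.29 ± 0.16 with diet as a covariate. HSD11B1, HSD17B6 and AKR1D1 differed by -0.04 ± 0.14, -0.12 ± 0.18 and -0.02 ± 0.31. Without replicate 3 of group B these 3 differences were -0.09, -0.18 and -0.18. For no enzyme was the diet difference shown to differ between the sexes. The interaction of diet and sex gave 0 of 6 past the threshold in each pair of diets, 0 of 6 with an unadjusted p under 0.05, and adjusted p-values of at least 0.998 in edgeR, while over all genes 0% passed and 4.06%, 4.09% and 3.61% had an unadjusted p under 0.05 (R and B, R and C, B and C). For HSD3B1 the interaction for B against R was 0.26 with a 95% interval of -0.56 to 1.08, so a sizeable interaction was not detectable with these numbers of pigs.

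Within diets, the enzymes varied to different degrees. After the mean of each diet was subtracted, the SD of the log2 level was 0.82 for AKR1D1, above 96.8% of the 4474 genes with a mean of at least 20 CPM. It was 0.46 for HSD17B2, 0.40 for HSD3B7, 0.32 for HSD3B1, 0.29 for HSD17B6 and 0.24 for HSD11B1, where the median gene had 0.35. Without replicate 3 of group B, an alternative added after the data were seen, AKR1D1 had 0.56, above 90.9% of genes, and the other enzymes 0.23 to 0.39. HSD3B1 thus varied about as much between pigs of 1 diet as a typical liver gene, while HSD11B1 was among the steady ones.

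Replicate 3 of group B, whose library stood apart on the first principal component, was lowest or highest of the 16 pigs for 4 of the 6 enzymes. The share of all genes for which it was so was not counted, and the count is not read as particular to these enzymes. This pig had the lowest AKR1D1 (81.3 CPM, the other 15 pigs 162 to 819) and HSD11B1 (260 CPM, the others 269 to 484) of all pigs. It also had the highest HSD17B2 (814 CPM, the others 249 to 602) and HSD3B7 (89.0 CPM, the others 32.2 to 77.0). HSD3B1, at 39.4 CPM, was the second lowest of its group. In this pig the summed level of all 6 hepatocyte markers was 65712 CPM against 93816 to 189224 in the other pigs. That of the 8 Kupffer cell markers was 1669 CPM against 603 to 1144, and that of the 5 stellate cell markers was 686 CPM against 205 to 605. Their part in the levels of the enzymes was not tested.

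**Figure D4:**
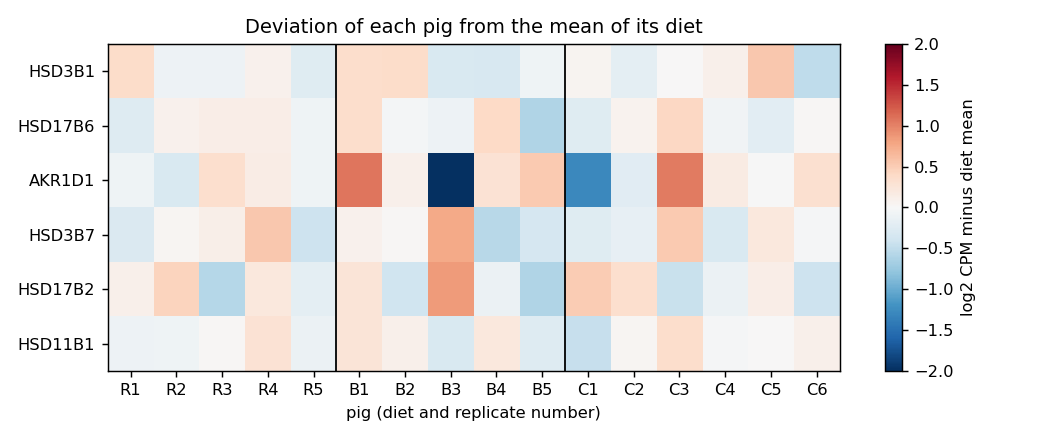
Deviation of each pig from the mean of its diet in log2 CPM (colour, red above and blue below the mean) for 6 enzymes (rows) in the 16 pigs (columns, by diet and replicate number). AKR1D1 has the strongest colours, from -1.99 in B3 to 1.08 in B1, and B3 is red for HSD17B2 (0.85) and HSD3B7 (0.76).

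The summed levels of the marker lists overlapped between all diets. The endothelial cell was the one nearest to a gap between groups R and B. Its 4 matched markers (PECAM1, STAB1, LYVE1 and CLEC4G) summed to 208 to 335 CPM on rapeseed oil (median 241). The sums were 322 to 369 on beef tallow (364) and 273 to 361 on coconut oil (296). The hepatocyte sums were 109839 to 162156, 65712 to 150364 and 100790 to 189224 CPM in groups R, B and C. The Kupffer cell sums were 603 to 1129, 834 to 1669 and 604 to 873 CPM, and those of stellate cells 250 to 605, 205 to 686 and 213 to 493 CPM. Medians in groups R, B and C were 123599, 108537 and 119695 CPM for hepatocytes. They were 1010, 978 and 663 CPM for Kupffer cells, and 366, 316 and 342 CPM for stellate cells. The endothelial median was thus lowest in group R, while those of hepatocytes, Kupffer cells and stellate cells were highest there. The 3 matched bile duct markers summed to at most 19.3 CPM in any pig. The part of these cell types in the diet differences was not tested.

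Within diets, the level of HSD3B1 was compared with that of each other enzyme. After subtraction of the diet means, Pearson's r with HSD3B1 over the 16 pigs was 0.21 for AKR1D1, 0.12 for HSD11B1, 0.10 for HSD3B7, 0.07 for HSD17B2 and -0.15 for HSD17B6. Spearman's rho ranged from -0.26 to 0.18. By two-sided permutation of pigs within diets, the adjusted p over the 5 relations was 0.804 for every r and 0.781 for every rho. The 2 pigs farthest from the median of HSD3B1 with diet means subtracted were replicates 5 and 6 of group C. Without them, r ranged from -0.10 to 0.34. No relation within diets was detectable with 16 pigs.

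Across all 16 pigs and 6890 genes, the levels most like that of HSD3B1 in log2 CPM were those of FAM81A (r = 0.89), ADTRP (0.86), ANPEP (0.86), TMEM150A (0.81) and TTR (0.80), beside 1 gene without a symbol (0.83). These are descriptions over pigs that share their diets. FAM81A, for one, had 28.8 ± 8.17, 7.13 ± 3.16 and 14.9 ± 3.00 CPM (SD) on rapeseed oil, beef tallow and coconut oil. ANPEP, an aminopeptidase of the cell surface, had 190 ± 28.7, 103 ± 13.5 and 121 ± 18.8 CPM. Of the other enzymes, HSD17B6 was nearest (r = 0.59, rank 197), followed by AKR1D1 (r = 0.45, rank 582).

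After the diet means were subtracted, other genes came first, namely IQGAP1 (r = 0.78), ETV6 (0.76), POC5 (0.76), ZHX1 (0.73) and PTGR1 (0.72). PTGR1 reduces prostaglandins and other unsaturated ketones. None of these 5 was among those nearest over all pigs, and FAM81A had r = 0.55 within diets.

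The wider metabolism of steroids was described by 8 lists of genes, which hold none of the 9 enzymes. The lists were chosen with earlier results of these data known. Their counts and adjusted p-values, here and below, are therefore a description, and no enrichment is read from them. Of 114 symbols, 81 were matched, and 52, 54 and 53 were tested in the pairs R and B, R and C, and B and C. Between groups R and B, 3 of 52 passed an adjusted p of 0.05 in edgeR, all lower in group B, against 1.11% of all genes tested (0.459% lower). Of the 52, 39 were lower in group B, with a median log2 difference of -0.24 against 0.01 for all genes. A further view by unadjusted p gave 20 of 52, 17 of them lower, against 15% of all genes. The count of 3 fell to 1 without replicate 3 or 5 of group R or replicate 4 of group B, and was 7 in DESeq2 against 3.24% of all genes.

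CYP7A1, the rate-limiting enzyme of bile acid synthesis and the step before HSD3B7, fell from 165 ± 57.7 CPM (SD, n = 5; 95.3 to 239) in group R to 26.8 ± 20.7 CPM (n = 5; 11.6 to 60.6) in group B. The log2 difference was -2.63 ± 0.39 (SE; edgeR, adjusted p = 0.00677), and the groups did not overlap. Group C had 116 ± 58.1 CPM, which was -0.53 ± 0.33 from group R (edgeR, adjusted p = 0.532) and 2.11 ± 0.46 from group B (edgeR, adjusted p = 0.131; DESeq2, adjusted p = 0.000680). The other 4 tested genes of bile acid synthesis did not pass in any pair. Of these, CYP7B1 and CYP27A1, hydroxylases of the other route into bile acids, differed by -0.20 ± 0.18 and -0.15 ± 0.17 for B against R, and ACOX2, which shortens the side chain, by -0.36 ± 0.17.

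In the steps from squalene synthesis to cholesterol, 12 of 13 genes were lower in group B than in group R, with a median log2 difference of -0.57, and 1 passed. This was FDFT1, the squalene synthase, which fell from 377 ± 202 CPM (SD; 186 to 618) in group R to 108 ± 28.8 CPM (71.6 to 148) in group B (log2 difference -1.80 ± 0.32; edgeR, adjusted p = 0.0204). MSMO1 and CYP51A1, which remove methyl groups from the sterol ring, were among the genes of the list with the highest CPM. They differed by -0.91 ± 0.27 and -0.45 ± 0.22 for B against R, and by 0.58 ± 0.22 and 0.66 ± 0.23 for C against B. Neither passed in edgeR in any pair, while MSMO1 passed in DESeq2 for B against R (DESeq2, adjusted p = 0.0405). For C against B, 12 of 13 were higher, with a median of 0.65.

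**Figure D5:**
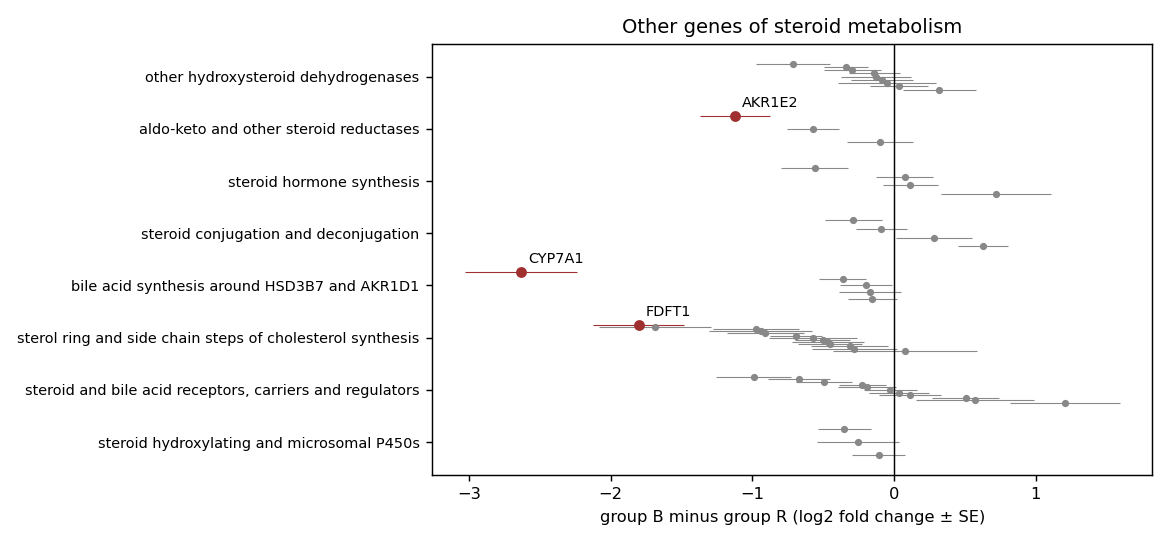
Log2 fold change of group B minus group R with its SE (horizontal axis) for the 52 tested genes of 8 lists of steroid metabolism (vertical axis), with genes past an adjusted p of 0.05 in edgeR in red. CYP7A1 (-2.63), FDFT1 (-1.80) and AKR1E2 (-1.12) passed, and 12 of 13 genes of cholesterol synthesis lie left of 0.

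In the list that holds aldo-keto reductases, the family of AKR1D1, together with other genes, 1 of 3 tested passed. AKR1E2 fell from 34.7 ± 6.20 CPM (SD; 28.4 to 44.5) in group R to 15.8 ± 4.88 CPM (10.3 to 23.3) in group B (log2 difference -1.12 ± 0.25; edgeR, adjusted p = 0.0426), with 30.3 ± 4.36 CPM in group C. PGRMC1, a haem-binding partner of P450 enzymes, differed by -0.57 ± 0.18 and AKR1A1, an aldehyde reductase, by -0.10 ± 0.23, neither past the threshold.

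The list of other hydroxysteroid dehydrogenases also holds related enzymes such as CBR4 and H6PD. None of its 9 tested genes passed in any pair of diets. In group B, 7 were lower than in group R, with a median log2 difference of -0.13. HSD17B11, a lipid droplet enzyme, HSD17B4, of peroxisomal side chain shortening, and HSDL2 differed by -0.34 ± 0.15, -0.14 ± 0.18 and -0.13 ± 0.25. The 4 genes tested of steroid hormone synthesis, the 4 of conjugation and the 3 P450 enzymes also gave 0 calls in edgeR in each pair. CYB5A, the electron donor that aids CYP17A1, differed by 0.08 ± 0.20 for B against R, PGRMC2 by 0.11 ± 0.19 and FDX1, which feeds electrons to mitochondrial P450s, by -0.56 ± 0.23. SULT2A1, which sulphates dehydroepiandrosterone and bile acids, differed by 0.63 ± 0.18 (edgeR, adjusted p = 0.0998; DESeq2, adjusted p = 0.0183). GUSB, which removes glucuronic acid, and SULT1E1, which sulphates oestrogens, differed by -0.09 ± 0.18 and 0.28 ± 0.27.

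The P450 enzymes CYP2A19, CYP2E1 and CYP1A2 differed by -0.25 ± 0.29, -0.35 ± 0.19 and -0.11 ± 0.19 for B against R. CYP2A19 belongs to a family of near-identical copies, so its reads may be split. Among receptors, carriers and regulators, 0 of 11 passed for B against R, where 5 had an unadjusted p under 0.05 against 15% of all genes. HNF4A, a hepatocyte transcription factor, and RXRA, the partner of the bile acid receptor, differed by 0.51 ± 0.24 and 0.04 ± 0.21. SERPINA6, the cortisol carrier of blood, had 444 ± 73.9, 278 ± 93.5 and 273 ± 67.0 CPM (SD) in groups R, B and C. It differed by -0.67 ± 0.22 for B against R (edgeR, adjusted p = 0.144) and -0.71 ± 0.18 for C against R (edgeR, adjusted p = 0.104; DESeq2, adjusted p = 0.0111).

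Over all lists, 0 of 54 genes passed for C against R in edgeR, where 0.138% of all genes did, with 5 at an unadjusted p under 0.05 against 13% of all genes, and 1 in DESeq2 against 2.61%. For C against B, 0 of 53 passed in edgeR, where 0.0587% of all genes did, with 15 at an unadjusted p under 0.05, 12 of them higher in group C, against 11.5% of all genes, and 2 in DESeq2 against 2.46%. Without replicate 1 of group C the first count was 1, and without replicate 2 of group B the second was 1. The median log2 difference was -0.16 for C against R and 0.14 for C against B.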

How the data were processed

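Liver 3′ mRNA libraries (QuantSeq) of 16 pigs were analysed. Before deposit, the authors used FastQC for read quality, TopHat for alignment to the Sscrofa11.1 genome and HTSeq for counting over Ensembl genes. The deposited values are raw counts, not normalized, and the authors' own test was DESeq2. Reads that mapped to several places were not counted, and made up 15.4% to 38.1% of the tallied reads, so near-identical gene copies lose counts. Tallies of unassigned reads were left out of library sizes.

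Symbols came from an annotation table (14858 identifiers) and, for HSD3B1, from its known identifier. Positions are from RefSeq (Sscrofa11.1), which gave none for HSD17B6. Each pair of diets was fitted alone, without covariates, with edgeR 4.0.16 (R 4.3.3): TMM, filterByExpr (minimum count 10, minimum total 15), quasi-likelihood test, Benjamini-Hochberg adjustment over all genes tested, threshold 0.05. The first diet named is the reference. The SE is the log2 fold change over the root of F, and the 95% intervals rest on it. DESeq2 1.42.0 was an alternative. Log2 CPM used a prior count of 0.5. Within-diet correlations used 100000 permutations. The test was checked on simulated data.

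The enzymes, lists and markers were chosen with earlier results of these data known. Genes named are the 9 enzymes, list genes past the threshold, the 3 genes of each list with the highest mean CPM and the 5 genes most like HSD3B1 in each of 2 ways. One list gene under this rule is counted but not reported here. Other alternatives were RLE, no filter, 1 fit of all pigs, sex or diet as a covariate, a replicate block, another prior count and each pig left out.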

Additional observations from a re-analysis of the deposited data

How the results depend on the processing

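Counts of calls depended on the settings. Genes called between groups R and B were 70, and 188 in DESeq2, 190 without the filter, 35 with the replicate block, and 9 to 149 with a pig left out (9 without replicate 5 of group R, 149 without replicate 3 of group B). They moved by over 1.5 times without each pig of these groups except replicate 4 of group R. Between R and C they were 9, and 93 in DESeq2, 82 without the filter, 5 with sex as a covariate and 3 to 27 with a pig left out (3 without replicate 3 of group R, 27 without replicate 3 of group C). Between B and C they were 4, and 53, 22 and 8 in DESeq2, without the filter and with all pigs in 1 fit, and 4 to 9 with a pig left out (9 without replicate 2 of group B). Between the sexes they were 5, and 11 in DESeq2 and 10 without the filter.

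Enzymes past the threshold were 1 for R and B (2 in DESeq2, 1 to 1 with a pig left out) and 0 for R and C (1 in DESeq2, 1 without the filter, 0 to 1 with a pig left out, 1 being without replicate 5 of group C). List genes were 3 for R and B (7 in DESeq2, 7 without the filter, 1 to 3 with a pig left out), 0 for R and C (1, 1, and 0 to 1) and 0 for B and C (2, 2, 0 to 1, and 1 with the replicate block). The cause was not tested. The replicate numbers of the labels were not shown to pair the pigs, though so few pigs cannot exclude a pairing. Same-numbered pigs deviated together with correlations of -0.12 to 0.13, -0.02 to 0.10 and -0.23 to 0.10 in the 3 pairs, and 0, 2 and 1 of 5 pigs correlated best with their own number. With the block, the log2 difference of HSD3B1 for C against R was -0.83. At this depth and with 5 or 6 pigs per diet, small differences in these enzymes could not be resolved.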

Other observations

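FKBP5, a cochaperone of the glucocorticoid receptor whose gene that receptor switches on, was chosen from the lists after its values were seen. It had means of 87.2 (20.3 to 158), 201 (145 to 287) and 134 (57.6 to 198) CPM in groups R, B and C, a log2 difference of 1.20 ± 0.39 (SE) for B against R (edgeR, adjusted p = 0.142), which did not pass the threshold.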
